A study of Cavia porcellus with 24 samples.

Results

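Transcripts of 5 genes of cytosolic protein folding, Hspa8, Hspa14, Dnajb1, Cct2 and Cacybp, were followed in RNA flushed from the carotid endothelium of Hartley guinea pigs. They are 5 of the 18149 genes of the deposited table, where they stand as ENSCPOG00000004169 (Hspa8), ENSCPOG00000008489 (Hspa14), ENSCPOG00000035272 (Dnajb1), ENSCPOG00000012867 (Cct2) and ENSCPOG00000038347 (Cacybp). The 5 genes were selected on their difference between PC-C and PC-H, since all stand on the study's own list of genes for that contrast, so its values are given as a description, without a test. All 5 also passed the filter on low values, with 13224 genes tested in all.

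The 24 animals fell into 8 groups of 3, which crossed generation, the ration of the F0 dams and the diet of the animal itself. In the PC arm the F0 dams received 100% of the ad libitum intake, and in the PR arm 70% of it before mating and in early pregnancy, with a milder restriction from mid gestation to weaning. PC-C and PR-C were F1 offspring on control chow with 13% of energy from fat, and PC-H and PR-H were F1 offspring on a high fat diet (HFD) with 38% of energy from fat, which added pork fat, cholesterol and fructose. The F2 offspring, of F1 females kept on control chow, formed the groups PC-C-C and PR-C-C on control chow and the groups PC-C-H and PR-C-H on the HFD. All animals ate control chow until 8 weeks of age, then 12 weeks of their diet, and were sampled at 20 weeks. The comparisons ask whether the diet changes the transcripts of the endothelium, and whether the response depends on what an earlier generation was fed. Litters are not given in the labels. The study states that siblings were as a rule kept out of the same diet group, and that few dams bore the F2 animals of the PC arm, so relatives may be present within a group or across diets, and p-values measure the spread between these animals. For PC-H animal 34 a diet mix is noted for the last part of that time.

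The heat shock protein 70 family binds exposed hydrophobic stretches of unfolded proteins and lets them go in a cycle driven by ATP. Proteins of the J-domain family start that cycle by stimulating ATP hydrolysis, and the ring-shaped chaperonin CCT, also called TRiC, encloses newly made actin, tubulin and other proteins while they fold. Hspa8 encodes Hsc70, the constitutive cytosolic member that also strips clathrin from vesicles, Hspa14 encodes a member that works at the ribosome, Dnajb1 encodes the heat-inducible J-domain protein Hsp40, Cct2 encodes the beta subunit of CCT, and Cacybp encodes calcyclin binding protein, an adaptor of ubiquitin ligase complexes that also binds the Hsp90 system. Cacybp thus belongs to none of the chaperone families named above.

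The libraries held 14061522 to 31148123 reads (median 25618572). Values are reads per gene divided by a size factor per library, called normalized counts here, and differences are on the scale of log2 of the normalized count plus 1. PC-C-H animal 51 is absent from the study's animal list, and its median correlation with the other libraries was 0.835, against 0.936 to 0.974 for the rest. It was left out of the tests, which leaves 2 animals in PC-C-H. In addition, 6 libraries stand apart across many genes: all 3 of PR-C-C (animals 41, 47 and 58), a pair of PC-C-C (54 and 55) and animal 51. A score of that division was 2.36 to 2.98 in them and -0.82 to -0.23 in the other 18. It is the mean log2 value of genes called higher in PR-C-C than in PR-C minus that of genes called lower. High scores in PR-C-C and low scores in PR-C are thus built in. Because all of PR-C-C lies on one side, that division and PR-C-C cannot be told apart. Endothelial marker genes could not be checked, since names were at hand for only 147 identifiers. Of 3 lymphoid markers among those (Pou2af1, Fcmr and Bach2), the summed normalized count was 574 in PC-H 34. It was 19.2 to 574 over PC-H, 1.03 to 28.0 over PC-C, 18.5 to 37.8 over PR-H, 12.6 to 42.8 over PR-C, 34.3 to 51.2 over PC-C-C, 40.2 to 107.7 over PC-C-H, 17.9 to 31.2 over PR-C-C and 19.4 to 35.9 over PR-C-H. The macrophage marker Siglec1 read 156 in PC-H 34 and 268 in PC-C-H 51 and at most 28.5 in every other library. It was at 0 in 8 libraries, and Pou2af1 was at 0 in 12. These markers could be named only through the study's list for PC-C against PC-H, so a difference between those groups is built in. In bulk RNA, fewer cells of a type and less RNA per cell cannot be told apart.

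Hspa8 was the gene of the 5 that varied most among animals of a group. In PC-C its normalized counts were 17036, 20274 and 10826, and in PC-H they were 29435, 44933 and 24056. All 3 PC-H animals stood above all 3 PC-C animals, in the contrast that chose the genes (12.5% of all genes did not overlap). In PR-C the values were 28046, 20879.6 and 22592, and in PR-H 33787, 35044 and 45577, again without overlap (9.38% of all genes). In the F2 generation, PC-C-C gave 25604, 17008 and 19858 and PC-C-H gave 28779.6 and 30973, a smaller gap but no overlap (25.2% of all genes). PR-C-C gave 36547, 20795 and 31267 and PR-C-H gave 34699, 30016 and 26769, which overlapped. The means of the 8 groups ran from 16045 ± 4801 (SD, n = 3) in PC-C to 38136 ± 6474 (SD, n = 3) in PR-H. All 4 HFD groups had a higher mean than all 4 control groups, but the lowest HFD mean, 29876 ± 1551 (SD, n = 2) in PC-C-H, exceeded the highest control mean, 29536 ± 8018 (SD, n = 3) in PR-C-C, by far less than the spread. The order includes PC-C and PC-H, which chose the genes, and the share of all genes with HFD means above all control means was not computed. No neighbours in this order differed beyond the larger SD of the pair. How reads shared with near-identical copies of Hspa8 were counted is not given in the sources used here, so its level carries that uncertainty.

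Hspa14 lay within a narrow range in most groups, but its order of diets differed between generations. PC-C gave 696, 697 and 729.6 normalized counts, and PC-H gave 901, 1136 and 1347, with the highest value in animal 34. PR-C gave 837, 803 and 689 and PR-H gave 950.4, 799 and 965, which overlapped. PC-C-C gave 836, 854 and 844 against 824 and 714 in PC-C-H, and PR-C-C gave 1112, 1212 and 1025 against 903, 939 and 913 in PR-C-H. In both F2 arms every tested HFD animal thus stood below every control animal. Groups did not overlap for 25.2% of all genes in the PC arm and 26.3% in the PR arm of F2. Of the F2 control libraries all but PC-C-C 52 stand apart, and no tested HFD library does. PC-C-H 51, left out of the tests, was at 1294, above all of PC-C-C. PR-C-C, at 1116 ± 93.5 (SD, n = 3), was level with PC-H, at 1128 ± 223 (SD, n = 3), and the step from PR-C-C down to PR-C-H, at 918 ± 18.5 (SD, n = 3), was the only one between neighbouring groups, over all 5 genes, without overlap. PC-C was lowest, at 708 ± 19.0 (SD, n = 3).

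Dnajb1 was near-identical among the PC-C animals, at 2635, 2620.0 and 2701 normalized counts, and stood at 4322, 4394 and 3303 in PC-H. PR-C gave 2702, 3398 and 2573 and PR-H gave 3692, 3523 and 4001. PC-C-C gave 3028, 2123 and 1828 against 3559 and 2994 in PC-C-H, which overlapped through animal 52. PR-C-C gave 2332, 2412 and 2678 against 2955, 2790.2 and 3259 in PR-C-H. HFD animals stood above control animals without overlap in 3 of the 4 pairs of groups. These were PC-C and PC-H, which chose the genes (12.5% of all genes did not overlap), PR-C and PR-H (9.38%) and PR-C-C and PR-C-H (26.3%). All 4 HFD means were above all 4 control means, an order that again includes PC-C and PC-H. HFD means ran from 3001 ± 238 (SD, n = 3) in PR-C-H to 4006 ± 610 (SD, n = 3) in PC-H. Control means ran from 2327 ± 625 (SD, n = 3) in PC-C-C to 2891 ± 444 (SD, n = 3) in PR-C. The step from PR-H to PC-C-H was larger than either SD, although the animals overlapped, and no other neighbours differed beyond the larger SD. The 5 libraries in the tests that stand apart had values of 1828 to 2678, where the other 18 had 2573 or more.

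Cct2 varied least, both between groups and within them. PC-C gave 2556, 2359 and 2205 and PC-H gave 2793, 3509.6 and 3301, without overlap (12.5% of all genes). PR-C gave 2822, 2696 and 2663 and PR-H gave 2797, 3150.3 and 3246, with PR-H 16 below PR-C 17. PC-C-C gave 2941, 2223 and 2266 against 3080.5 and 2873 in PC-C-H, and PR-C-C gave 2914, 2715 and 3059 against 3241, 2797 and 2816 in PR-C-H. As with Hspa8, every HFD mean was above every control mean, but the lowest of the former, 2951 ± 251 (SD, n = 3) in PR-C-H, and the highest of the latter, 2896 ± 173 (SD, n = 3) in PR-C-C, differed by less than their spread. The largest mean was 3201 ± 369 (SD, n = 3) in PC-H and the smallest 2373 ± 176 (SD, n = 3) in PC-C, the groups that chose the genes. No neighbours differed beyond the larger SD.

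Cacybp gave 3081, 3367 and 2405 in PC-C and 4658, 4936 and 6447 in PC-H, with the highest value again in animal 34. PR-C gave 3876, 4185 and 3362 and PR-H gave 4266, 4024 and 5307. PC-C-C gave 3505, 3593 and 3224 against 3535 and 3847 in PC-C-H, and PR-C-C gave 5215, 4377 and 4786 against 4469.7, 3586 and 3824 in PR-C-H. Of the 4 pairs of diets, only PC-C and PC-H, which chose the genes, did not overlap (12.5% of all genes). PR-C-C, at 4792 ± 419 (SD, n = 3), was the second highest group after PC-H, at 5347 ± 963 (SD, n = 3), as it was for Hspa14, and PC-C was lowest, at 2951 ± 494 (SD, n = 3). The step from PC-C-H to PC-C-C was larger than either SD but the animals overlapped.

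**Figure D1:**
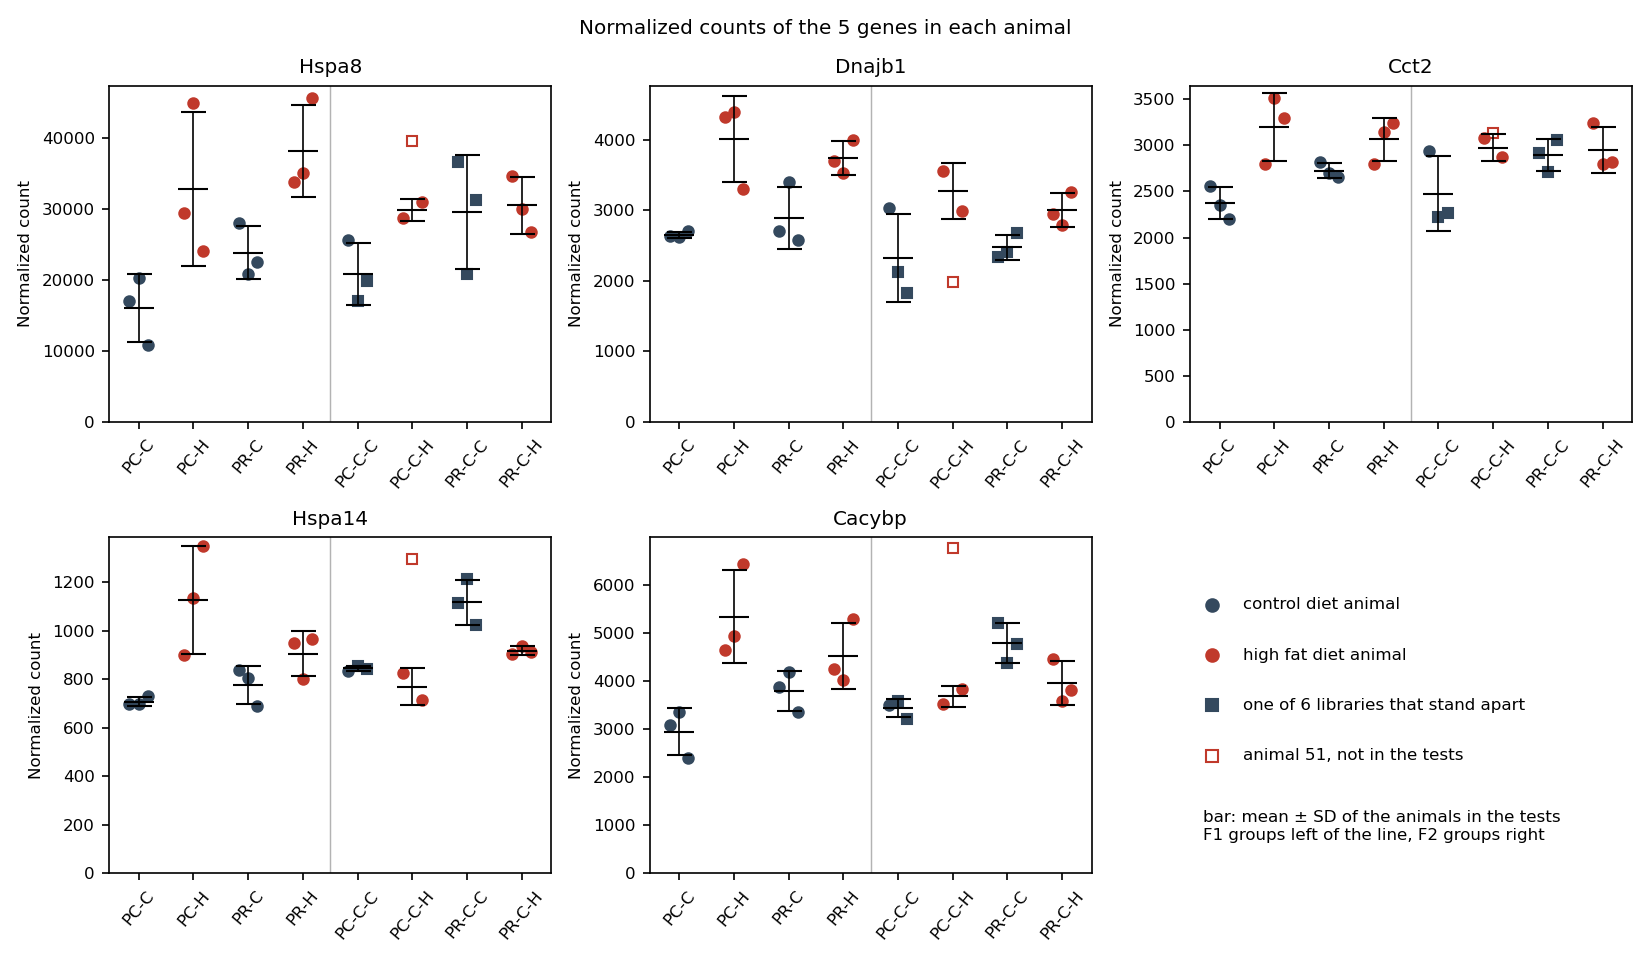
Normalized counts of each gene (y axis, from 0) in the 8 groups (x axis), with 1 point per animal and the mean ± SD of the animals in the tests as bars. Hspa8, Dnajb1 and Cct2 have higher means in every HFD group than in every control group, whereas Hspa14 and Cacybp are high in PC-H and also in the control diet group PR-C-C. A high PC-H and a low PC-C are built in by the choice of the genes, and the share of all genes with either pattern was not computed. Squares mark the 6 libraries that stand apart, and the open square is PC-C-H animal 51.

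Relative to the mean of the 23 animals, the lowest value of any gene was Hspa8 in PC-C 28, at -1.28 on the log2 scale, the same animal in which Cacybp was lowest, at -0.73. Among the PC-H animals the genes did not share an order. Animal 34 was highest for Hspa14 and Cacybp and lowest for Hspa8 and Dnajb1. It is also the only female in PC-C and PC-H. The same animal had the mixed diet and the high lymphoid and macrophage markers, and the part of these traits was not tested. Without it, the log2 difference between PC-H and PC-C was 1.23 rather than 1.03 for Hspa8, 0.72 rather than 0.58 for Dnajb1, 0.40 rather than 0.43 for Cct2, 0.52 rather than 0.65 for Hspa14 and 0.71 rather than 0.86 for Cacybp.

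**Figure D2:**
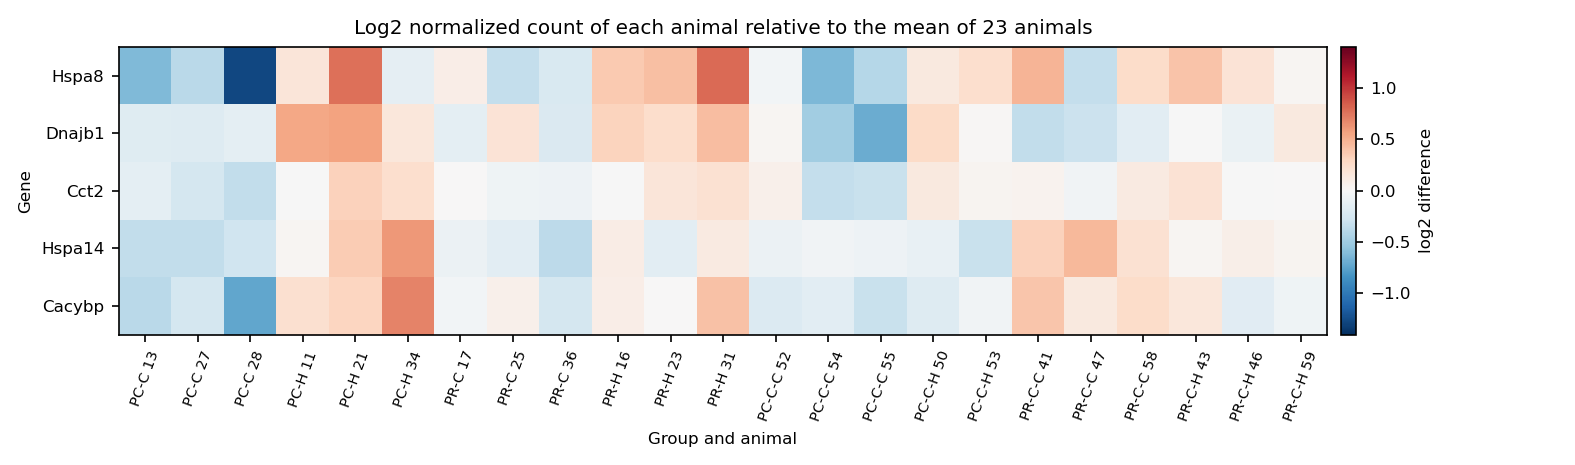
Difference of the log2 normalized count of each animal (columns, by group) from the mean of the 23 animals in the tests (rows are genes, the color scale is in log2 units). The PC-C animals are below the mean for all genes, and PC-H 34 is highest for Hspa14 and Cacybp but below the mean for Hspa8.

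The diet response was compared next. For PC-C against PC-H, the contrast that chose the genes, the log2 differences were 1.03 for Hspa8, 0.86 for Cacybp, 0.65 for Hspa14, 0.58 for Dnajb1 and 0.43 for Cct2. The groups did not overlap for any of the 5, as for 12.5% of all genes, a count fixed by the choice of the genes and from which nothing is read. The other diet comparisons share no library with it.

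In the PR arm of F1, all 5 genes had higher means in PR-H than in PR-C, as did 49% of all genes, but none passed the limma test at an adjusted p of 0.05, which 0.0227% of all genes did. Hspa8 differed by 0.68 ± 0.25 (SE), a 1.60-fold difference, with a 95% interval of 0.15 to 1.20 and an limma adjusted p of 1.0. Dnajb1 differed by 0.38 ± 0.16 (SE), with an interval of 0.05 to 0.71 and the same adjusted p. These 2 genes had unadjusted limma p-values under 0.05 (3.24% of all genes), and the same pair had no overlap between the groups, as did 9.38% of all genes. Hspa14, Cct2 and Cacybp differed by 0.22, 0.17 and 0.25 and their intervals included 0. The median of the 5 genes was 0.25, beside -0.0048 over all genes tested. DESeq2, the test the study used, and edgeR called none of the 5, where they called 0.0981% and 0.00663% of all genes.

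In the PC arm of F2 the genes parted. Hspa8 (0.54), Dnajb1 (0.52) and Cct2 (0.28) had higher means in PC-C-H than in PC-C-C, Cacybp differed by 0.10 and Hspa14 was lower (-0.14). None of the 5 passed the limma test, which 0.00756% of all genes did, and DESeq2 and edgeR called none either. Of all genes DESeq2 called 0.345% and edgeR 0.0133%. Dnajb1 came nearest, with a 95% interval of 0.15 to 0.89, an unadjusted limma p of 0.0084 (7.65% of all genes were under 0.05) and an limma adjusted p of 0.437. This gene passed where PC-C-C animal 52 was left out (0.73, limma adjusted p = 0.0237), as did 1.81% of all genes. In that fit both PC-C-C libraries stand apart and neither PC-C-H library does, so the diet and that division cannot be told apart there. Groups without overlap were seen for Hspa8 (higher) and Hspa14 (lower), but with 2 animals in PC-C-H that was the case for 25.2% of all genes.

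In the PR arm of F2, Dnajb1 had the highest value of the 5, at 0.28 ± 0.16 (SE) with a 95% interval of -0.05 to 0.61. Hspa8 and Cct2 differed by 0.08 and 0.03, and Hspa14 (-0.28) and Cacybp (-0.28) had lower means in PR-C-H. None passed the limma test, with 2.61% of all genes called, nor DESeq2 (4.79%) or edgeR (1.88%). No unadjusted limma p was under 0.05 (15.8% of all genes). The groups did not overlap for Dnajb1 (higher in PR-C-H) and Hspa14 (lower), as for 26.3% of all genes. The control group here is PR-C-C, whose 3 libraries all stand apart, so its difference from PR-C-H and that division cannot be told apart.

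Averaged over these 3 comparisons, which the choice of genes did not use, Dnajb1 was the 1 gene of the 5 that passed adjustment. Its mean response was 0.39 ± 0.10 (SE), a 1.31-fold difference with a 95% interval of 0.19 to 0.59. The limma adjusted p was 0.0361, in a test that called 2.19% of all genes. DESeq2 gave it an adjusted p of 0.00778, in a test that called 4.55% of all genes, and edgeR gave 0.0494, with 1.57% called. Hspa8 had a mean response of 0.43, with a wider interval of 0.12 to 0.75 and an limma adjusted p of 0.148. Cct2 had 0.16 with an limma adjusted p of 0.302, Cacybp 0.02 and Hspa14 -0.07. The median of the 5 genes was 0.16, beside -0.0023 over all genes tested. In the F2 comparisons that enter this mean, all control libraries except PC-C-C 52 stand apart and no tested HFD library does. The diet and that division cannot be fully told apart there. In PR-C against PR-H, where no library stands apart, Dnajb1 did not pass adjustment.

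The call for Dnajb1 lay close to the threshold. With 1 of the 17 libraries of these 6 groups left out in turn, the estimate stayed between 0.34 and 0.46 but passed in only 3 of the 17 fits, those without PR-C 25, PC-C-C 52 or PR-C-C 58, and the limma adjusted p ran from 0.00192 to 0.134. With animal 51 included the mean response was 0.31 (limma adjusted p = 0.304). With a term for the libraries that stand apart it was 0.05 (limma adjusted p = 0.995), and in that fit the PC arm of F2 compares PC-C-C 52 alone with PC-C-H and gave 0.11, and the PR arm of F2 gave -0.34.

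**Figure D3:**
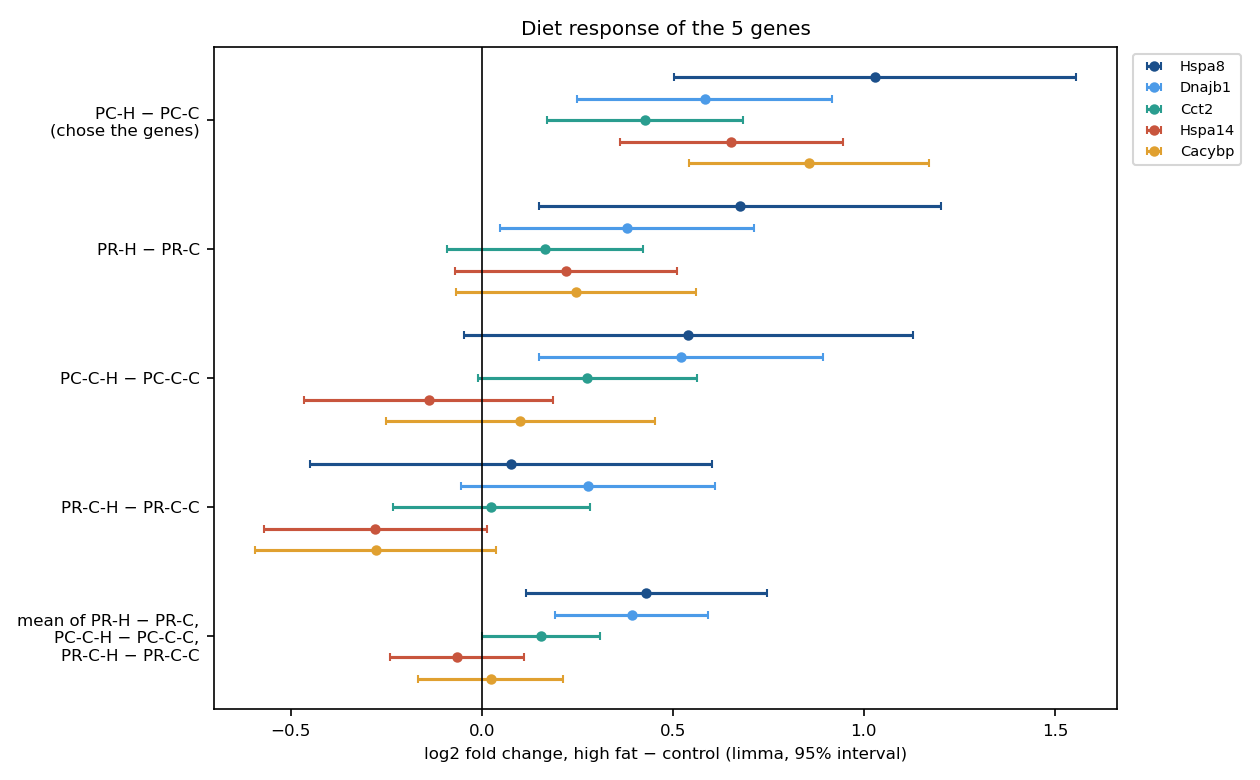
Log2 fold change of the high fat over the control diet (x axis) with 95% limma intervals for each gene in the 4 pairs of groups and in the mean of the 3 that did not choose the genes (y axis). The intervals of that mean exclude 0 for Dnajb1 and Hspa8 and barely for Cct2, of which only Dnajb1 passed adjustment over all genes, and the values of Hspa14 and Cacybp lie near 0.

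The difference of the diet response between the F0 rations was tested as an interaction within each generation. In F2, where neither arm chose the genes, the signed response of the PR arm minus that of the PC arm was below 0 for all 5: -0.46 for Hspa8, -0.24 for Dnajb1, -0.25 for Cct2, -0.14 for Hspa14 and -0.38 for Cacybp. A value below 0 was found for 49.3% of all genes. For Cacybp the responses had opposite signs (0.10 in the PC arm and -0.28 in the PR arm), and for Hspa14 both were negative (-0.14 and -0.28). All 5 intervals included 0 and all limma adjusted p-values were 1.0. No unadjusted p was under 0.05, against 2.64% of all genes. The widest interval, that of Hspa8, ran from -1.25 to 0.33 and the narrowest, that of Cct2, from -0.64 to 0.13. The F2 control libraries all stand apart except PC-C-C 52, and no tested HFD library does. Without PC-C-C 52 the values were -0.62, -0.45, -0.38, -0.13 and -0.39 in the order above. Unadjusted limma p-values were then under 0.05 for Dnajb1 (0.0456) and Cct2 (0.0423) only, and 0% of all genes passed adjustment. The share of all genes under 0.05 in that fit was not computed. In F1 the differences were -0.35, -0.20, -0.26, -0.43 and -0.61 in the same order, also all below 0 (49.6% of all genes), with limma adjusted p-values of 0.650 to 0.779. That comparison contains the PC-C and PC-H libraries that chose the genes, in which a large PC response was built in, so its direction is no separate evidence. None of the 13224 genes passed the F1 or the F2 test with limma, and DESeq2 and edgeR called none of the 5 in either. Of all genes DESeq2 called 0% in F1 and 0.127% in F2, and edgeR 0% in both.

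Between generations, the PR arm allowed a test outside the choice, although its F2 control group is PR-C-C, whose libraries all stand apart. The signed response in F2 minus that in F1 was -0.60 for Hspa8, -0.10 for Dnajb1, -0.14 for Cct2, -0.50 for Hspa14 and -0.52 for Cacybp, all below 0 as for 49.3% of all genes. Intervals excluded 0 for Hspa14 (-0.91 to -0.09) and Cacybp (-0.97 to -0.08), whose unadjusted limma p-values were 0.0201 and 0.0232, but 9.57% of all genes had p-values under 0.05 and the limma adjusted p-values were 0.401 and 0.421. None of the 5 passed, with 0.0756% of all genes called, nor did any with DESeq2 (1.1% of all genes) or edgeR (0.0265%). Hspa14 had a response of 0.22 in F1 and -0.28 in F2, and Cacybp 0.25 and -0.28, so that the sign turned for both. With a term for the libraries that stand apart the differences were -1.08 for Hspa8, -0.72 for Dnajb1 and -0.53 for Cct2. The size of that term came from PC-C-C alone, the only tested group with libraries of both kinds. There only animal 52 does not stand apart, so these values rest on that animal. In the PC arm, which contains the libraries that chose the genes, the differences were -0.49, -0.06, -0.15, -0.79 and -0.76 in the order above. With limma 0 genes passed in that test and 9.87% of all genes had an unadjusted p under 0.05. DESeq2 called Hspa14 (adjusted p = 0.0454), as it did 0.211% of all genes. For Hspa14 every PC-H animal was above every PC-C animal while the 2 tested PC-C-H animals were below every PC-C-C animal and PC-C-H 51 was above them all. Groups did not overlap for 12.5% of all genes between PC-C and PC-H and for 25.2% between PC-C-C and PC-C-H.

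**Figure D4:**
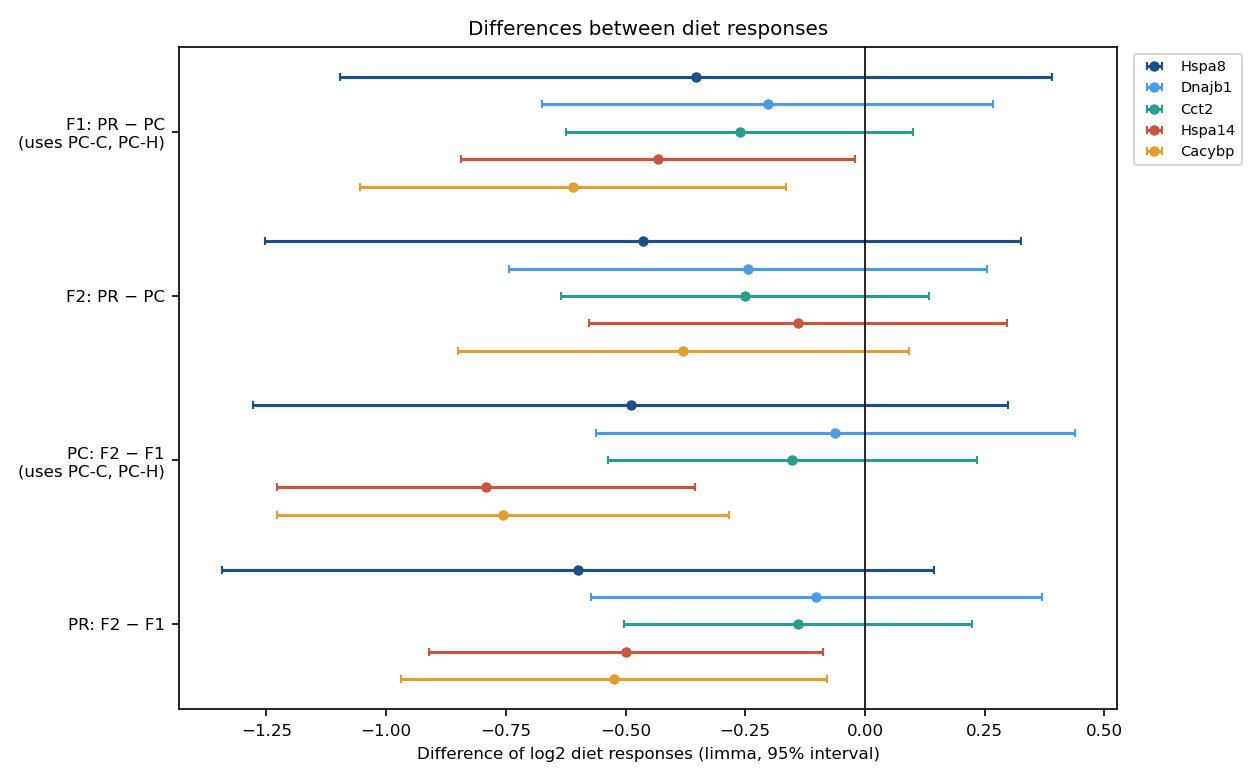
Differences between diet responses on the log2 scale (x axis) with 95% limma intervals, for the PR arm minus the PC arm in each generation and for F2 minus F1 in each arm (y axis). The 4 differences are built from the same 4 diet responses and share libraries, so that their signs are not separate. In the comparisons that do not use PC-C and PC-H only Hspa14 and Cacybp in the PR arm have intervals that exclude 0, and none passed adjustment over all genes.

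The generations were also compared within a diet, with libraries that the diet comparisons use too. On control chow, Hspa14 was higher in PR-C-C than in PR-C by 0.53 ± 0.14 (SE), with no overlap (20.8% of all genes) and an limma adjusted p of 0.0521, just short of the threshold that 2.28% of all genes passed. DESeq2 called it, with an adjusted p of 0.00855 (4.76% of all genes), and edgeR, which called 1.45% of all genes, did not (0.0662). Cacybp was also higher without overlap (0.33, limma adjusted p = 0.283), Hspa8 and Cct2 differed by 0.28 and 0.09, and Dnajb1 by -0.22. The 3 PR-C-C libraries all stand apart and the 3 PR-C libraries do not. On the HFD, none of the 5 passed between PR-H and PR-C-H, with values of -0.32 for Hspa8 and Dnajb1, -0.19 for Cacybp, -0.05 for Cct2 and 0.03 for Hspa14 and limma adjusted p-values of 1.0. Only Dnajb1 had no overlap there (9.07% of all genes), lower in PR-C-H.

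Between the F0 rations on control chow, all 5 genes had higher means in PR-C-C than in PC-C-C (49.2% of all genes), with a median of 0.40 beside -0.01 over all genes tested. Cacybp differed by 0.48 ± 0.15 (SE) and Hspa14 by 0.40 ± 0.14 (SE), both without overlap (10.8% of all genes) and with unadjusted limma p-values of 0.00498 and 0.00977 (4.65% of all genes were under 0.05). Hspa8 differed by 0.49, Cct2 by 0.24 and Dnajb1 by 0.12, with overlap. None passed, with an limma adjusted p of 0.982 for Cacybp and Hspa14 and 0% of all genes called. Without PC-C-C 52, when all libraries compared stand apart, the values were 0.49 for Cacybp, 0.39 for Hspa14, 0.65 for Hspa8, 0.37 for Cct2 and 0.33 for Dnajb1. On the HFD, PR-C-H and PC-C-H differed by 0.26 for Hspa14, without overlap (19.9% of all genes), and by -0.12 to 0.10 for the other 4, with limma adjusted p-values of 1.0. In the F1 generation, where the PC groups chose the genes, PR-C minus PC-C ran from 0.11 for Dnajb1 to 0.61 for Hspa8, and PR-H minus PC-H from -0.30 for Hspa14 to 0.25 for Hspa8.

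How the 5 genes vary together was measured in the 17 animals of the 6 groups other than PC-C and PC-H, as the correlation of deviations from the group means, with 100000 permutations within groups and adjustment over the 10 pairs. Hspa8 and Cct2 went together most closely, with a Pearson r of 0.72 (permutation p = 0.00615, adjusted p = 0.0615) and a Spearman rho of 0.70 (permutation p = 0.0155, adjusted p = 0.155), and r was 0.80 without the 2 animals farthest from the median of Hspa8. Dnajb1 and Cct2 followed, with an r of 0.63 (permutation p = 0.0979, adjusted p = 0.297) and a rho of 0.51 (permutation p = 0.0845, adjusted p = 0.393). That relation rests on few animals, since r was 0.28 without the 2 farthest. Hspa8 and Cacybp had an r of 0.53 (permutation p = 0.0576, adjusted p = 0.288) and a rho of 0.42 (permutation p = 0.147, adjusted p = 0.393), and an r of 0.43 without the 2 farthest. The lowest values were those of Hspa14 with Hspa8, at -0.10, and with Cct2, at -0.13. None of the 10 pairs passed the adjustment by either measure. Of the 10 pairs, 8 were above 0, and the median r of 0.30 was exceeded by 22.3% of all pairs of genes, whose own median was -0.00089. Among the 11 of these animals whose libraries do not stand apart and whose group keeps at least 2 animals, a setting added after the values were seen, r was 0.68 for Hspa8 and Cct2, 0.58 for Hspa8 and Cacybp and 0.13 for Dnajb1 and Cct2, with a median of 0.46. The 5 that stand apart are too few for a value.

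With the group means left in, the median r of the 10 pairs was 0.58 in the same 17 animals. Hspa8 and Cct2 reached 0.85, Hspa14 and Cacybp 0.64 and Hspa8 and Dnajb1 0.61, whereas Dnajb1 and Hspa14 had -0.13. These values hold the differences between groups, and the points of a group share their diet and ration. Animal PR-H 31 was above its group mean for all 5 genes, and PR-C 36 and PC-C-C 55 were above it for none.

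**Figure D5:**
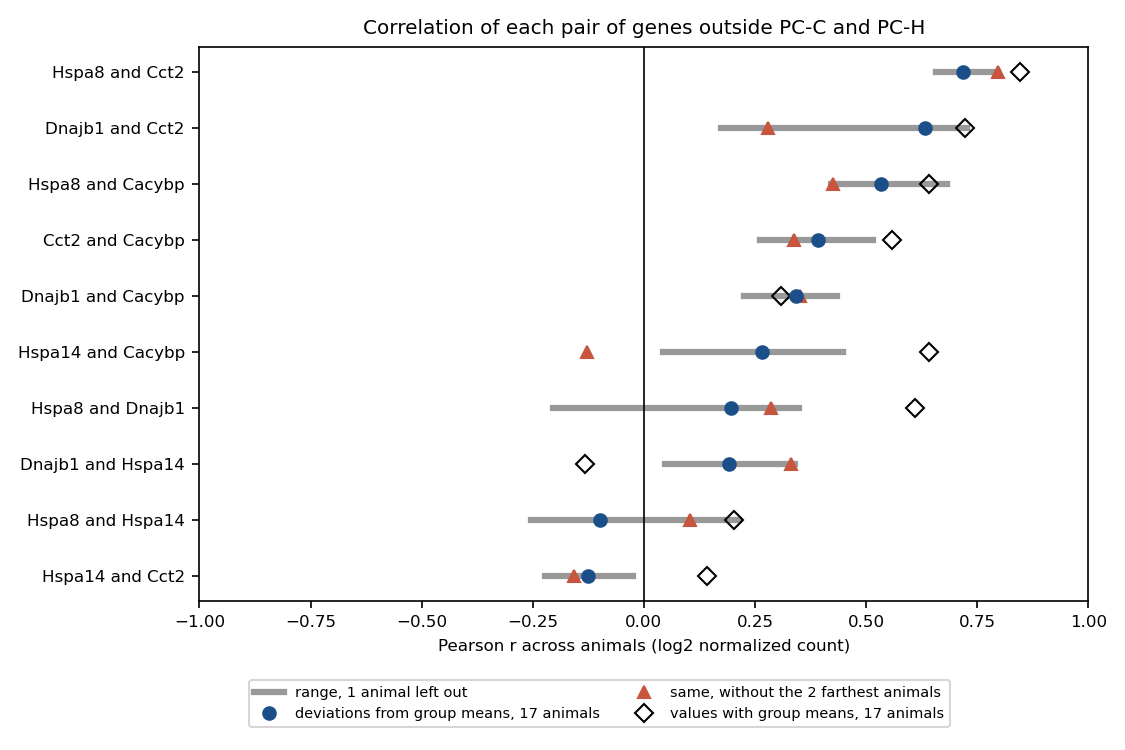
Pearson r of the log2 normalized counts across 17 animals (x axis) for each of the 10 pairs of genes (y axis), as deviations from group means (circles, with the range when 1 animal is left out as a bar), without the 2 farthest animals (triangles) and with group means left in (diamonds). Hspa8 and Cct2 stay together at 0.72, 0.80 and 0.85, while Hspa14 and Cacybp go from 0.27 to 0.64 when group means are left in.

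Over all 23 animals, PC-C and PC-H included, the gene most like Cct2 among 11230 genes with a mean of at least 50 was Hspa8 (r = 0.84). The gene most like Hspa8 was ENSCPOG00000007441 (r = 0.93), for which no name was at hand, and Cct2 ranked 7. Sertad1, a regulator of E2F-dependent transcription, was the gene most like Dnajb1 (r = 0.88), and Phf11, a zinc finger protein of the PHD type, was the most like both Hspa14 (r = 0.82) and Cacybp (r = 0.88). Cacybp ranked 8 in likeness to Hspa14, but Dnajb1 ranked 3494. These r values share the libraries of the contrast that chose the named genes and are descriptions. Within groups the SD was 0.33 on the log2 scale for Hspa8, more than for 58.1% of all genes, and 0.20 for Dnajb1, 0.18 for Cacybp, 0.14 for Hspa14 and 0.13 for Cct2, which 3.63% of all genes undercut, beside a median of 0.30.

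The other genes of protein folding and import that could be named were Hspe1 (the mitochondrial cochaperonin), Chchd4 and Timm13 (import into the mitochondrial intermembrane space), Dnajb11 and Manf (endoplasmic reticulum), Dnajc25, Cct3 (another CCT subunit), Txnl1 (a thioredoxin-like protein) and Xbp1 (a transcription factor of the unfolded protein response). They come from the same study list, so that all 9 had higher means in PC-H than in PC-C, with a median difference of 0.59, is again no finding. In PR-H against PR-C 4 were higher and 5 lower, with a median of -0.05. In PC-C-H against PC-C-C 6 were higher and 3 lower, with a median of 0.05, and in PR-C-H against PR-C-C 0 were higher and 9 lower, with a median of -0.13. Of all 13224 genes tested, 6484, 6507 and 6649 were higher in these 3 comparisons, and 6565 were lower in the last. All PR-C-C libraries stand apart, so the diet and that division cannot be told apart there. The mean of the 3 responses was above 0 for 4 and below for 5, and its median was -0.02 beside 0.16 for the 5 genes. In these 3 comparisons and their mean, which do not use PC-C or PC-H, 0 of the 9 passed with limma or DESeq2. There limma called 0.0227%, 0.00756%, 2.61% and 2.19% of all genes, and DESeq2 0.0981%, 0.345%, 4.79% and 4.55%. The unadjusted limma p was under 0.05 for 2, 0, 0 and 0 of the 9, and for 428, 1012, 2089 and 2141 of all 13224 genes.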

How the data were processed

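Messenger RNA from 24 carotid endothelial samples was sequenced. The authors used FastQC for quality checks, Trimmomatic for trimming, STAR for alignment and DESeq2 for testing; versions, genome build, annotation and the counting program are not given in the sources used here. The deposited signal values hold the reads of each gene over a size factor per library. Division by the step of each column gave whole reads for 100% of values within a tolerance of 1e-06. In 2 libraries the step was near 1, so that check tells little there. All columns were used.

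Groups follow the labels, and each animal is a replicate. With PC-C-H 51 left out, 1 limma 3.58.1 model with an intensity trend and a mean per group was fitted to the log2 values (pseudocount 1) of the 13224 genes whose mean reached 10. DESeq2 1.42.0 and edgeR 4.0.16 were run on the recovered reads. P-values were adjusted over all genes tested by the Benjamini-Hochberg method at 0.05, for 12 comparisons of groups, 4 differences of diet responses and the mean of 3 responses. Intervals are at 95%. The scripts were tested on simulated data with R 4.3.3, python 3.11.15, numpy 2.4.6 and matplotlib 3.10.9.

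The 5 genes, the other folding genes, the cell type markers and the 6 libraries that stand apart were chosen with earlier results of these data known. Besides the 5 genes, those named are the folding and import genes that the study's readable list pairs with an identifier, and for each of the 5 the most similar gene and most similar named gene over 23 libraries. The reference table matched 0 of the identifiers, and 147 were named through that study list, whose own fold changes and p-values were not used. Further cytosolic chaperones, sequences and positions are not analysed here. Alternatives were DESeq2, edgeR with TMM, TMM with limma, pseudocounts of 0.1 and 10, no filter, only the groups compared, 24 libraries, sex as a covariate, array weights, a term for the libraries that stand apart and each library left out. Depth limits counting error only, since the closest pair of animals in a group differed far beyond it.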

Additional observations from a re-analysis of the deposited data

Results flagged for a closer look

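Among the tested animals, Hspa14 had diet responses of opposite sign in the generations of the PC arm. The response in F2 minus that in F1 was -0.79 on the log2 scale. Every PC-H animal was above every PC-C animal (12.5% of all genes did not overlap there). Both tested PC-C-H animals were below every PC-C-C animal (25.2% did not overlap). limma gave an adjusted p of 0.460 and DESeq2 0.0454. PC-C and PC-H are the groups that chose the gene, so neither the difference nor its p-values are independent of that choice. The F2 response alone was -0.14, with a 95% interval of -0.46 to 0.19 and a limma adjusted p of 0.919, and it was 0.11 with animal 51 included.

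PC-C-H animal 51, which was left out of the comparisons, was above every control diet library for 4 of the 5 genes, with normalized counts of 39577 for Hspa8, 1294 for Hspa14, 3134 for Cct2 and 6777 for Cacybp. The share of all genes above every control diet library in animal 51 was not computed, so nothing is read from that count. Dnajb1 in this animal, at 1983, was below that of every other HFD library. Siglec1 was at 268 in this library, and its part in these values was not tested.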

How the results depend on the processing

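No paired analysis was possible because each animal has its own number and the labels give no litter that groups share. Under the alternatives, 1120 of 1175 values for single genes kept their direction and side of the threshold, 16 lost and 7 gained the threshold and 32 changed sign. Only Dnajb1 in the mean of the 3 diet responses had a call to lose, and all 16 losses were of that call. They were 14 of 17 fits with a library left out and 2 of 11 other alternatives. TMM moved the median of all genes by less than 0.1 on the log2 scale in every comparison. For the mean of the 3 diet responses 2.19% of all genes passed in the main fit. With animal 51 included 0 of the 5 genes passed (0.11% of all genes), and with the term for the libraries that stand apart 0 (0.0302%). With array weights 2 of the 5 passed, Dnajb1 and Hspa8 (13.2% of all genes). With a library left out, in fits that keep at least 2 animals per group, 0 to 1 passed (0.619% to 5.62% of all genes). In PC-C-H against PC-C-C 1 gene (Dnajb1) passed with array weights, as did 4.89% of all genes against 0.00756% without them, and 0 to 1 passed with a library left out, where without PC-C-C 52 the share was 1.81%. Hspa14 was the 1 gene of the 5 that passed with DESeq2 in the generation difference of the PC arm (0.211% of all genes). It was also the 1 gene in PR-C-C against PR-C with DESeq2 (4.76% of all genes), with sex (2.61%) and with array weights (5.04%). The median correlation was 0.58 with group means left in.

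Signs changed as follows, and the cause was not tested. With animal 51 included, Hspa14 gave 0.11 in PC-C-H against PC-C-C and 0.018 in the mean of the 3 responses, and PR-C-H minus PC-C-H gave -0.11 for Hspa8, 0.12 for Dnajb1 and -0.20 for Cacybp. With the term for the libraries that stand apart, PR-C-H minus PR-C-C gave -0.40 for Hspa8, -0.34 for Dnajb1 and -0.36 for Cct2, the mean of the 3 responses gave -0.061 for Cct2 and -7.8e-05 for Cacybp, and PR-C-C minus PR-C gave 0.40 for Dnajb1. The size of that term rests on PC-C-C, where only animal 52 does not stand apart. Array weights gave -0.00867 for Cct2 in PR-C-H minus PR-C-C. With sex as a covariate, Hspa8 gave -0.00956 in PR-C-H minus PC-C-H and Hspa14 -0.030 in PR-C-H minus PR-H. With a library left out, PR-C-H minus PR-C-C ran from -0.16 to 0.25 for Hspa8 and from -0.043 to 0.066 for Cct2, and PR-C-H minus PC-C-H from -0.075 to 0.11 for Hspa8, from -0.25 to 0.00077 for Dnajb1 and from -0.084 to 0.035 for Cct2. The mean of the 3 responses ran from -0.016 to 0.050 for Cacybp, the generation difference in the PC arm from -0.22 to 0.15 for Dnajb1, PR-C-C minus PC-C-C from -0.038 to 0.33 for Dnajb1 and PR-C-H minus PR-H from -0.061 to 0.075 for Hspa14. With 2 animals in PC-C-H and 3 in the other groups, the 95% interval of the F2 difference of responses of Hspa8 reached -1.25 on the log2 scale.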
